A study of Mus musculus with 3 samples.

Results

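The replication-dependent histone genes were taken as every gene of the GENCODE M21 annotation whose symbol starts with Hist1h, Hist2h, Hist3h or Hist4h. The annotation holds 70 such genes, and 67 of them, with 75 transcripts, were among the 15861 genes of the mRNA table. These were 5 H1, 18 H2A, 19 H2B, 12 H3 and 13 H4 genes, of which 53 lie on chromosome 13 (the Hist1 genes), 10 on chromosome 3 (Hist2), 3 on chromosome 11 (Hist3) and 1 on chromosome 6 (Hist4h4). All 67 had at least 20 reads over the 3 libraries and 64 had at least 100. Hist1h1t, Hist1h2aa and Hist1h2aj had no transcript in the mRNA table.

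The libraries were made from apoptotic bodies (ABs), the membrane-bound fragments that dying cells shed, of C57BL/6 mouse cells along osteoclast differentiation, with 1 library per stage. Bone marrow cells of mice in postnatal week 11 were kept in M-CSF, the macrophage growth factor, at 50 ng/ml for 72 h, which gave bone marrow macrophages, the source of the BMM-ABs. Preosteoclasts (pOC-ABs) had then received RANKL, the osteoclast-inducing cytokine, at 100 ng/ml with M-CSF at 30 ng/ml for 24 h, and mature osteoclasts (mOC-ABs) for at least 72 h. Per the labels, apoptosis was induced with alendronate, a bisphosphonate, at 500 μM for 12 h in all 3 groups, whereas the study's methods name staurosporine for a shorter time, so the inducer is not settled here. The study's text also gives a shorter culture in M-CSF for the macrophages, a later time for mature osteoclasts and, for its staining cultures, a higher M-CSF dose beside RANKL, so the culture times and doses are those of the labels only. The sample titles name the cells, and the design text and the study's methods name the ABs. G1 compares pOC-ABs with BMM-ABs, G2 compares mOC-ABs with BMM-ABs, and G3 compares mOC-ABs with pOC-ABs; the comparisons share libraries, and none has a replicate. Each log2 ratio below is of RPM (reads per 1000000 reads of the mRNA table), and its 95% interval (exact Clopper-Pearson, on the split of reads between 2 libraries) covers counting error only. Runs of 3 read counts are ordered BMM-ABs first, then pOC-ABs, with mOC-ABs last, and runs of 3 ratios are ordered G1, G2, G3. No p-value can be given, and a library and its stage cannot be told apart.

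The mRNA table held 9100082 (BMM-ABs), 7387317 (pOC-ABs) and 7705592 (mOC-ABs) reads. Of the 9 osteoclast markers examined, 8 were listed, and all 8 were past 2-fold higher in G2, while 4 of 5 macrophage markers were past 2-fold lower. Over all 12713 genes with at least 20 reads, 4.15% were higher and 9.01% lower in G2. Markers of B cells, T cells and stromal cells had at most 7 reads each over the libraries or were not listed, and none of the erythroid or neutrophil markers was listed.

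Replication-dependent histone genes supply the histones that package newly copied DNA, and their mRNAs build up in S phase. H2A, H2B, H3 and H4 form the nucleosome core, and H1 binds the linker DNA between nucleosomes. Their mRNAs are mostly intronless and end not in a poly-A tail but in a conserved stem-loop, which is bound by the stem-loop binding protein SLBP and cut with the help of the U7 small nuclear RNA. Some of these genes can also give polyadenylated mRNAs, which has been described in differentiated cells. Per the study's methods, messenger RNA was purified on poly-T beads, while the labels call the molecule total RNA.

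The stem-loop is the sequence feature that the symbols did not use, and it is printed for 1 gene of each of the 8 forms found, and also for Hist2h2aa1, which returns below with the same form as Hist2h3c1, with 5 bases on either side, as DNA letters. It was searched as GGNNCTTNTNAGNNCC on the transcript strand, with positions 3 and 14 and positions 4 and 13 able to pair. It was present in annotated transcripts of 46 of the 70 genes (65.7%), against 15 of 55380 other genes (0.0271%). Among those others were H2afx, a histone variant gene, and Gm20634, which returns below. The 16 capitals are the stem-loop, and the sequences are GENCODE M21 transcripts on GRCm38:
Hist2h3c1, chr3:96247327-96247342, plus strand: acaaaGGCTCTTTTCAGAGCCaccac
Hist2h2aa1, chr3:96246032-96246047, plus strand: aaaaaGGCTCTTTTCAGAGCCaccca
Hist1h3e, chr13:23561903-23561918, minus strand: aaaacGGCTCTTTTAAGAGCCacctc
Hist1h3g, chr13:23535889-23535904, plus strand: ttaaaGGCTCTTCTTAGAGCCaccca
Hist2h2ac, chr3:96220418-96220433, minus strand: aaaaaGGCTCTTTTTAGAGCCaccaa
Hist4h4, chr6:136803998-136804013, minus strand: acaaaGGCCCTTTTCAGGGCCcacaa
Hist2h4, chr3:96262939-96262954, minus strand: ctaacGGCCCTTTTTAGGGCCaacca
Hist1h4b, chr13:23757366-23757381, plus strand: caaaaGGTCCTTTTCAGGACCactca
Hist1h4a, chr13:23760800-23760815, minus strand: ccaaaGGCCCTTCTCAGGGCCgccca
The form of Hist2h3c1 and Hist2h2aa1 was the most common, in 26 listed genes of H1, H2A, H2B and H3 with 162301 reads in all. The form of Hist4h4 was found in 7 H4 genes with 61719 reads, and that of Hist1h3e in 5 H2B and H3 genes with 26324 reads. The form of Hist2h4 and that of Hist1h4b each occurred in 2 H4 genes, and the forms of Hist1h4a, Hist1h3g and Hist2h2ac in 1 gene each.

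Replication-dependent histone mRNA was abundant in all 3 libraries. The 67 genes together had 152831 reads for BMM-ABs, 114422 for pOC-ABs and 116217 for mOC-ABs. These were 1.679% (Wilson 95% interval 1.671 to 1.688), 1.549% (1.540 to 1.558) and 1.508% (1.4996 to 1.517) of the reads of the mRNA table. Per length of transcript, the median gene stood at 311, 268 and 278 FPKM along the 3 stages, against medians of 15.2, 14.6 and 13.7 FPKM over protein-coding genes with at least 20 reads. Between 61 and 62 of the 67 genes were above that median in each library. Among the 100 protein-coding genes with the highest FPKM, the replication-dependent histone genes numbered 21, 13 and 14 in turn. FPKM depends on the annotated length, and histone models differ: 12 genes had a main transcript that ended at the stop codon, while the model of Hist1h1d spanned 7425 bases.

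The reads were spread over many genes. Hist2h3c1, which encodes H3, had the most, with 11728, 9893 and 8944 reads, or 7.97% of all reads of the 67 genes. The 15 genes with the most reads held 50.8%. By FPKM the highest single value, in BMM-ABs, belonged to Hist1h2al, an H2A gene typed as a pseudogene in the annotation, with 1487 FPKM (4587 reads), 1004 (2514 reads) and 1139 (2974 reads). The plot of RPM by library shows most genes as nearly level lines.

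**Figure D1:**
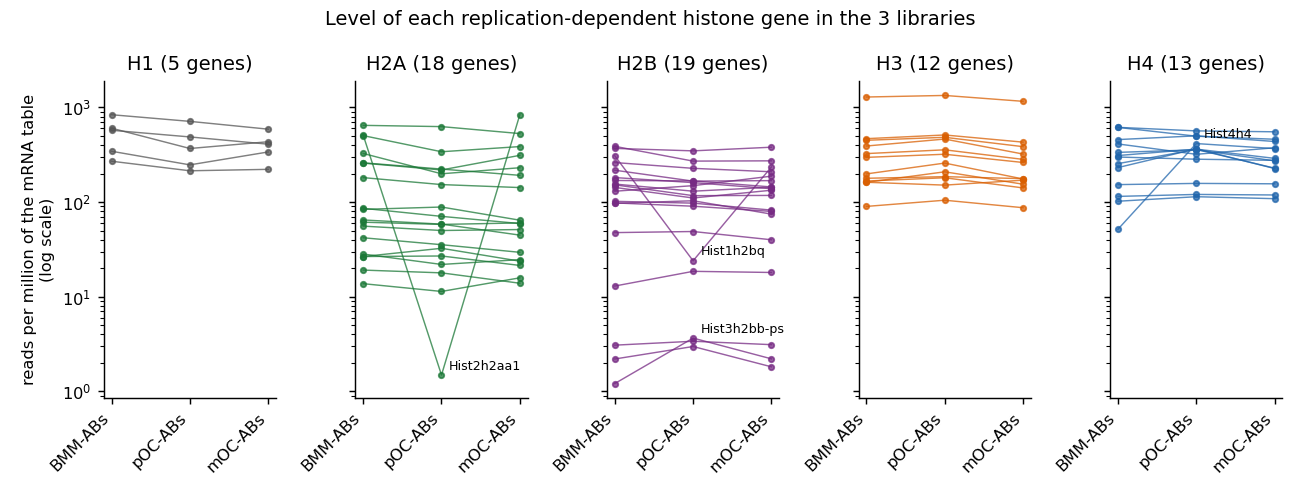
RPM (log axis) of each of the 67 genes in the 3 libraries, 1 line per gene and 1 panel per histone class. Most lines are nearly level, while Hist2h2aa1 dips to 1.49 RPM and Hist1h2bq to 24.0 in pOC-ABs, and Hist4h4 climbs from 51.6 to 415 between BMM-ABs and pOC-ABs.

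The sum of all 67 genes was slightly lower in both later libraries. The log2 ratio was −0.12 (−0.13 to −0.11) for G1, −0.16 (−0.17 to −0.14) for G2 and −0.038 (−0.050 to −0.027) for G3. The genes had medians of −0.076, −0.20 and −0.18, against −0.021, −0.054 and −0.049 over all 12713 genes with at least 20 reads. In G1, 37 of 67 genes were below 0, in G2 54 and in G3 46. Of the 12713 genes, 6548, 6938 and 6929 were below 0 in G1, G2 and G3. Scaled to the mRNA and lncRNA reads together, every value moves by −0.20 in G1, −0.10 in G2 and +0.099 in G3, and the sum in G3 then reads +0.060. With the reads of the overlapping transcript Gm20634, described further on, the sum gave −0.042 in G1 and −0.11 in G3, and without Hist4h4 and Hist2h2aa1 it gave −0.23 in G2 and −0.12 in G3.

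Genes past 2-fold are given beside the share over all 12713 genes tested, which were not of like depth. The histone genes had a median of 4358 reads over the 3 libraries, against 465 over all 15861 genes of the mRNA table. In G1, 2 of 67 were higher (Hist4h4 and Hist3h2bb-ps), where 4.87% of all genes tested were, and 2 were lower (Hist2h2aa1 and Hist1h2bq), where 6.06% were. In G2, only Hist4h4 was higher (background 4.15%) and none was lower (background 9.01%). In G3, Hist2h2aa1 and Hist1h2bq were higher (background 3.5%) and none was lower (background 6.86%). Hist3h2bb-ps, an H2B pseudogene, rests on 11, 27 and 17 reads, and it is named here after its values were seen.

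**Figure D2:**
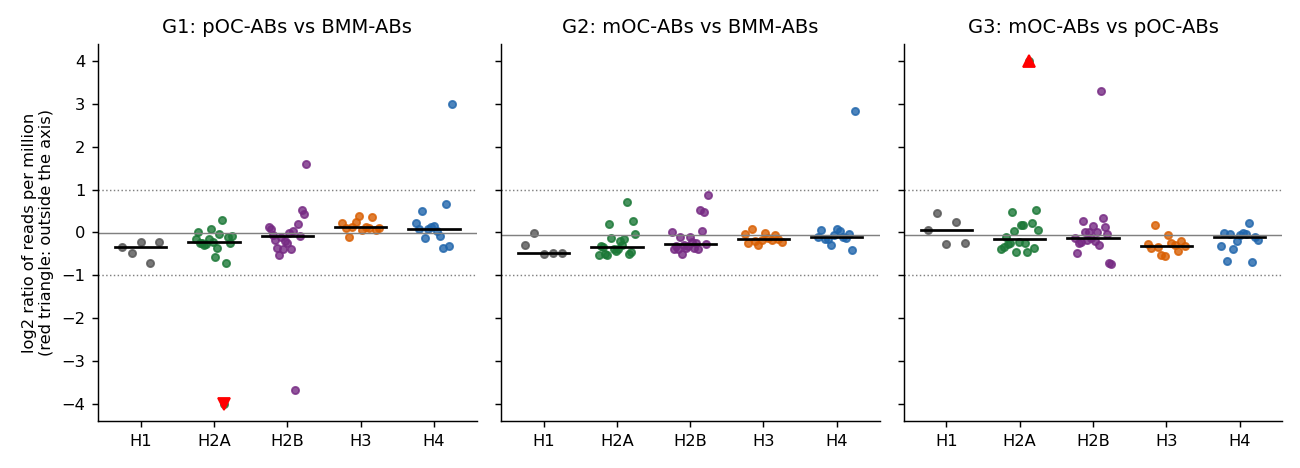
Log2 ratios of RPM for each gene by class in G1, G2 and G3, with 1 point per gene, black bars at class medians, dotted lines at 2-fold and a grey line at the median of all genes tested. Red triangles mark Hist2h2aa1, which lies outside the axis at −8.42 in G1 and 9.13 in G3, and in G1 11 of 12 H3 points lie above 0 and all 5 H1 points below it.

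The classes went different ways in G1. The H3 genes summed to 38013, 33716 and 28883 reads, with log2 ratios of 0.13 (0.11 to 0.15), −0.16 (−0.18 to −0.13) and −0.28 (−0.31 to −0.26). In G1, 11 of 12 H3 genes were above 0, as were 6165 of all 12713 genes tested. The H3 genes are not separate readings, as the 9 on chromosome 13 share sequence with each other, and so do those on chromosome 3. The H4 genes summed to 35974, 32649 and 29820 reads, with ratios of 0.16 (0.14 to 0.18), −0.031 (−0.053 to −0.0085) and −0.19 (−0.21 to −0.17). Without Hist4h4 the H4 values were 0.038, −0.16 and −0.19, so that gene supplied most of the H4 excess in G1. H3 and H4 together thus stood slightly higher in pOC-ABs than in either other library, except that, scaled to the mRNA and lncRNA reads, their G1 ratios became −0.071 and −0.038.

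The linker and H2A–H2B classes were lower in G1. The H1 genes summed to 23934, 14999 and 15358 reads, with log2 ratios of −0.37 (−0.40 to −0.34), −0.40 (−0.43 to −0.37) and −0.027 (−0.059 to 0.0058). All 5 H1 genes were below 0 in both G1 and G2, as were 6548 and 6938 of all 12713 genes tested. The H2B genes had 25842, 16547 and 18747 reads and ratios of −0.34 (−0.37 to −0.31), −0.22 (−0.25 to −0.20) and 0.12 (0.089 to 0.15). The H2A genes had 29068, 16511 and 23409 reads and ratios of −0.52 (−0.54 to −0.49), −0.072 (−0.097 to −0.048) and 0.44 (0.41 to 0.47). Without Hist2h2aa1 the H2A ratios were −0.27, −0.29 and −0.021, and 15 of 18 H2A genes were below 0 in G1. H3 and H4 reads numbered 0.938, 1.38 and 1.02 per read of H1, H2A and H2B along the 3 stages. With the reads of Gm20634 counted among H2A, the values were 0.938, 1.23 and 1.02. Gm20634 also contains all 1820 bases of the H3 gene Hist2h3c1, so counting it among H2A is only 1 way to place its reads.

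**Figure D3:**
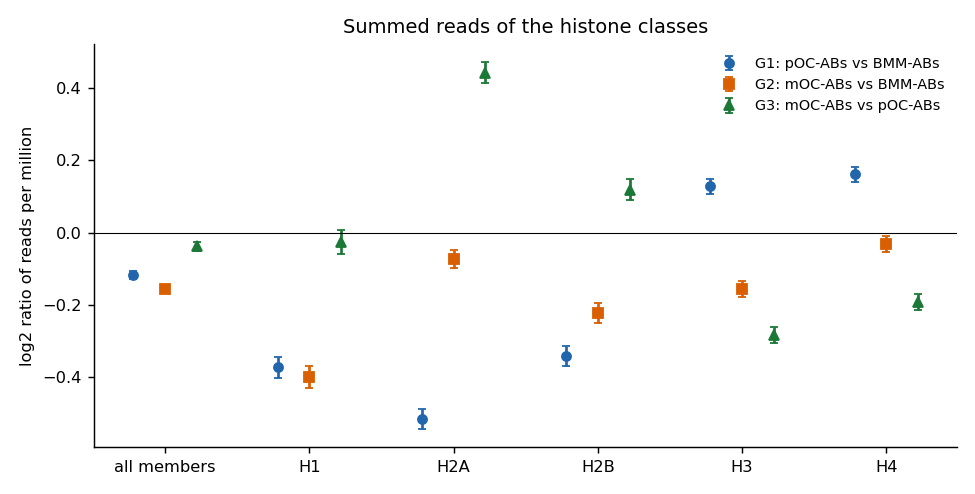
Log2 ratios of the summed RPM of all 67 genes and of each histone class in G1 (circles), G2 (squares) and G3 (triangles); bars are 95% intervals of counting error, with 1 library per stage. In G1 H1, H2A and H2B lie between −0.52 and −0.34 and H3 and H4 at 0.13 and 0.16, and the H2A point includes Hist2h2aa1.

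Base composition moved with the G1 and G3 ratios across the whole table, and less with those of G2. Over genes split into quintiles by the GC content of their main transcript, the median G1 ratio went from 0.24 in the lowest quintile to −0.20 in the highest, and 43 of the 67 histone genes lay in the highest quintile, where their own median was −0.044. The median G3 ratio went from −0.27 to 0.082, and the histone genes of the highest quintile stood at −0.20. For G2 the medians went from −0.023 to −0.12, with these histone genes at −0.18. The median GC content was 54.5% for H1, 64.3% for H2A, 57.8% for H2B, 59.9% for H3 and 56.2% for H4 transcripts. Its part in the class values was not tested.

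Among the H1 genes, Hist1h1c had the most reads, with 7624, 5264 and 4542. Its log2 ratio was −0.23 in G1 and −0.51 in G2, so it stepped down at each stage. Hist1h1e went the same way, with 5223, 3605 and 3152 reads and ratios of −0.23 and −0.49. Hist1h1d had 5494, 2721 and 3346 reads, with ratios of −0.71 in G1, −0.48 in G2 and 0.24 in G3. It was lowest in pOC-ABs.

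Among the H2A genes with the most reads, Hist1h2ao had 5886, 4634 and 4081 reads, with ratios of −0.044 in G1 and −0.29 in G2. The pseudogene Hist1h2al gave −0.57 and −0.39. For H2B, Hist2h2bb led with 3359, 2569 and 2928 reads, and its ratios of −0.086 in G1 and 0.042 in G2 were small.

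H3 was led by the Hist2h3c1 counts above, whose ratios were 0.055 in G1 and −0.15 in G2. Hist1h3h had 4257, 3781 and 3313 reads, with ratios of 0.13 and −0.12. Hist2h3c2 had 4093, 3572 and 2969 reads and ratios of 0.10 and −0.22, and Hist1h3e had 3560, 3423 and 2480 reads and ratios of 0.24 and −0.28. All 4 were above 0 in G1 and below 0 in G2.

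The H4 genes with the most reads were less alike. Hist1h4d had 5607, 4176 and 4261 reads, with ratios of −0.12 in G1 and −0.16 in G2. Hist2h4, the H4 gene of the chromosome 3 cluster, had 5599, 3670 and 3554 reads and ratios of −0.31 and −0.42. Hist1h4h, with 4164, 3703 and 3365 reads, gave 0.13 and −0.067. Hist1h4m, with 3744, 2363 and 2890 reads, gave −0.36 and −0.13. Hist1h4m and its near copy Hist1h4n together gave 0.092 and −0.097.

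Reads of these genes are hard to assign to 1 copy. Of the 67 main transcripts, 36 had at least 50% of their windows of 50 bases in common with transcripts of other genes, and 3 had none in common. The median share was 73.2% for H2A, 62.0% for H3, 49.7% for H2B, 39.5% for H4 and 2.25% for H1. How the authors' counting treated reads that match several genes is not given in the sources used here. With genes that share at least 50% of their windows joined, 27 groups remained, of which 2 were past 2-fold higher and 0 lower in G1, 1 higher in G2 and 0 in either direction in G3. The 2 in G1 were Hist4h4 and Hist3h2bb-ps, which had 55 reads in all. The other genes of the mRNA table were not joined in this way, so these counts have no background share.

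Hist2h2aa1 encodes H2A and had 4641 reads for BMM-ABs, 11 for pOC-ABs and 6450 for mOC-ABs, the widest span of the 67 genes. Its ratios were −8.42 (−9.42 to −7.58), 0.71 (0.66 to 0.77) and 9.13 (8.29 to 10.14). The annotation places Gm20634, a single-exon processed transcript of 2956 bases, on the same strand at chr3:96245554-96248509. It contains 529 of the 586 bases of Hist2h2aa1 and all 1820 of Hist2h3c1, with the stem-loops of both. Gm20634 had 1, 6065 and 48 reads, the reverse of Hist2h2aa1. Together they had 4642, 6076 and 6498 reads, with ratios of 0.69 (0.63 to 0.74) in G1, 0.73 (0.67 to 0.78) in G2 and 0.036 (−0.015 to 0.087) in G3. Hist2h3c1, which also lies within Gm20634, moved by 0.055 in G1. With Gm20634 added, the H2A class ratio in G1 was −0.064 and the pair was not past 2-fold in any comparison. Hist2h2aa2, whose windows all occur in both genes of the pair, had 2969, 1471 and 1777 reads. The 7 genes joined by shared windows (the pair, Hist2h2aa2, Hist1h2al, Hist2h3b, Hist2h3c1 and Hist2h3c2) gave 0.067, −0.036 and −0.10. The ratios of the pair thus depend on which of these genes are counted with it.

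Hist1h2bq, an H2B gene, had 2808 reads for BMM-ABs, 177 for pOC-ABs and 1813 for mOC-ABs, with ratios of −3.69 (−3.91 to −3.47), −0.39 (−0.48 to −0.31) and 3.30 (3.07 to 3.53). All windows of its 381-base transcript occur in Hist1h2br, which had 1185, 1102 and 1448 reads. The split of reads over the transcripts of the pair also differed between libraries. Hist1h2bq-201 had 1911, 6 and 1809 reads, and the 2-exon Hist1h2br-203 had 0, 708 and 17. The 3-exon Hist1h2bq-203, typed as subject to nonsense-mediated decay, had 897, 18 and 4 reads. The 2 genes together had 3993, 1279 and 3261 reads, and their ratios of −1.34 (−1.43 to −1.25), −0.052 (−0.12 to 0.015) and 1.29 (1.20 to 1.38) were still past 2-fold in G1 and G3. Without both genes the H2B class gave −0.22 in G1 and −0.26 in G2. They also share at least 50% of their windows with other H2B genes, and the 12 H2B genes joined in this way gave −0.44 in G1.

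Hist4h4, the only 1 of the 67 on chromosome 6, had 470 reads for BMM-ABs, 3068 for pOC-ABs and 2832 for mOC-ABs. It was 8.04-fold higher in G1 (log2 3.01, 2.87 to 3.15) and 7.12-fold higher in G2 (log2 2.83, 2.69 to 2.97), and G3 gave −0.18 (−0.25 to −0.10). Only 8.14% of its windows occur elsewhere, and no other listed gene shared 50% of them. The lncRNA transcript NONMMUT059240.2, which lies within its locus, had 162, 3 and 2 reads, so adding it does not even out the 3 libraries. The annotated Hist4h4 transcript is 2863 bases long and its stem-loop lies 2445 bases before its end.

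**Figure D4:**
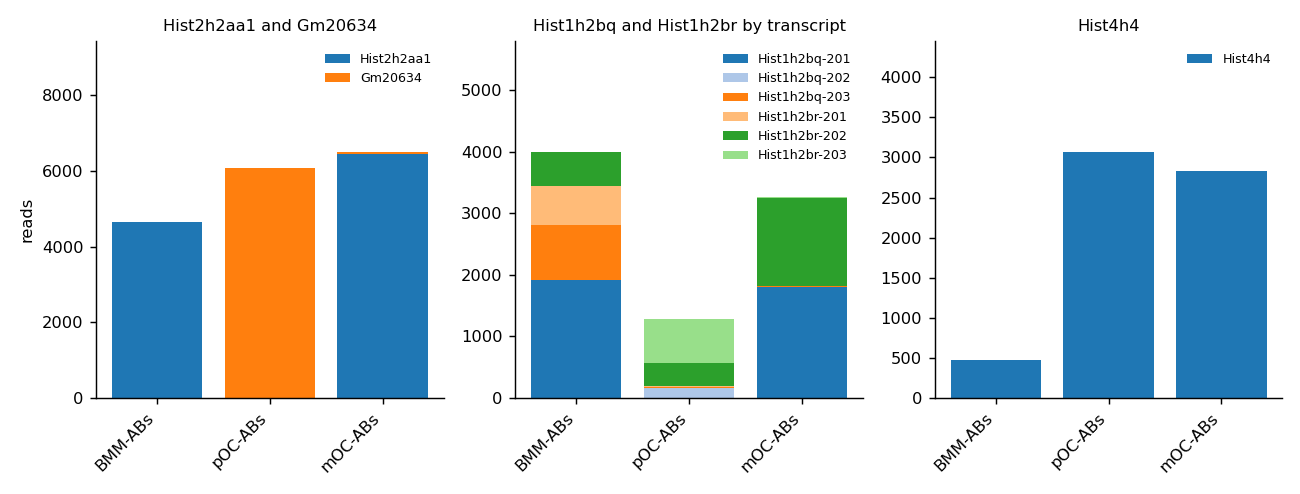
Reads per library of Hist2h2aa1 and Gm20634 (left), of the 6 listed transcripts of Hist1h2bq and Hist1h2br (middle) and of Hist4h4 (right), stacked, with 1 library per stage. In pOC-ABs nearly all reads of the left pair are listed under Gm20634, and its sum stays between 4642 and 6498 in the 3 libraries, the middle pair drops to 1279 reads in pOC-ABs, and Hist4h4 goes from 470 to 3068 reads.

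Split by where the main transcript ends, the sums differed in G1, G2 and G3. The difference in G1 rested on 2 genes, and most of that in G3 rested on Hist2h2aa1. The 22 genes whose stem-loop lies within the last 60 bases had ratios of −0.21 (−0.23 to −0.19) in G1, −0.058 (−0.079 to −0.038) in G2 and 0.16 (0.13 to 0.18) in G3. The 23 genes whose model runs on further had 0.00071 (−0.015 to 0.017), −0.21 (−0.22 to −0.19) and −0.21 (−0.23 to −0.19). Hist2h2aa1 belongs to the first set, and without it the set gave −0.055, −0.18 and −0.13. Hist4h4 belongs to the second, which without it gave −0.069, −0.28 and −0.21. These 2 sets thus lay close together in G1 once both genes were left out. In G3 both sets were then below 0 and nearer to each other, at −0.13 and −0.21. In G2 they stood at −0.18 and −0.28. The 12 genes whose model ends at the stop codon gave −0.21, −0.15 and 0.060. The 10 genes with no stem-loop in the model gave −0.30, −0.23 and 0.065. The annotation does not say which end the sequenced molecules had.

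Some other RNAs without a poly-A tail were plentiful in the same libraries. The listed 10, among them the 7SL RNAs of the signal recognition particle and the RNA parts of RNase P and RNase MRP, took 15.99%, 27.4% and 23.2% of the reads of both tables (mRNA and lncRNA). The histone genes held 1.20%, 0.964% and 1.01% of the same reads. Rn7s1 (7SL) alone took 9.43%, 14.8% and 13.04%, higher in both later libraries, where the histone sum was lower. Rn7sk, the 7SK RNA, took 1.23%, 0.920% and 1.04%, lower in both like the histone sum. Rn7s1, Rn7s2, Rn7sk, Rmrp and Rpph1 held nearly all reads of the listed RNAs. Rnu7, the U7 RNA, had 1 read in each library, and Rnu11, Rnu12, Terc and Vaultrc5 had at most 517 in any library.

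**Figure D5:**
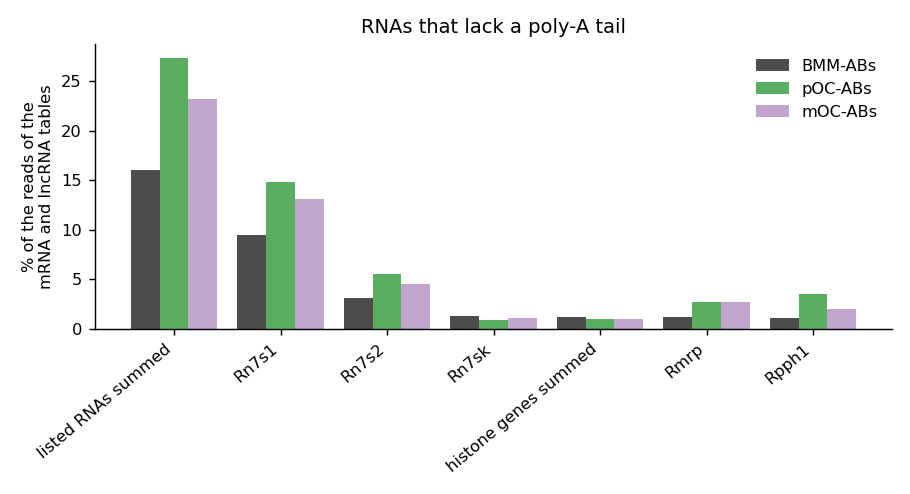
Share of the reads of the mRNA and lncRNA tables (linear axis from 0, %) taken by RNAs that lack a poly-A tail and by the 67 histone genes summed, in each of the 3 libraries, with RNAs under 0.005% left out. The listed RNAs summed to 15.99%, 27.4% and 23.2%, and the histone genes to 1.20%, 0.964% and 1.01%.

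The upstream sequences differ between the classes. Of the 67 genes, 60 matched a RefSeq promoter (GRCm38.p6), and 250 bases before the start were searched on both strands for the CCAAT box. The TATA box was searched as TATAA, and the octamer as ATTTGCAT. CCAAT was present in 81.7% of the 60 (33.8% of all 32817 promoters), in all H1, H2A and H2B promoters, but in 25% of those of H4. TATAA was present in 63.3% (22.8% of all). The octamer was present in 20% (1.60% of all), namely 6 of 17 H2A and 6 of 16 H2B promoters, and in none of H1, H3 or H4. The annotation holds 14 head-to-head pairs of an H2A and an H2B gene with 172 to 305 bases between them, which share 1 upstream sequence. The 3 upstream sequences shown belong to such a pair and to 2 of the genes past 2-fold, with the motifs in capitals; the octamer of Hist1h2bg is the run of 8 capitals:
Hist1h2bg, chr13:23571221-23571395, plus strand: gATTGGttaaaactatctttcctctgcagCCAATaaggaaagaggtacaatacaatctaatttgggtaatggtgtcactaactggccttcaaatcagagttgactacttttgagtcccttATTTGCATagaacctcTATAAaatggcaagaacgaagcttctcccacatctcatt
Hist1h2bq, chr13:21810200-21810449, minus strand: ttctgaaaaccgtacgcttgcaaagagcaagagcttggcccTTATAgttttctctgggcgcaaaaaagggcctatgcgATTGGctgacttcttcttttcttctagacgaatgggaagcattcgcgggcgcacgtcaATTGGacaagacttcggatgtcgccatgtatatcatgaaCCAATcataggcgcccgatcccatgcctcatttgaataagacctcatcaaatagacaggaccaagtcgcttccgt
Hist4h4, chr6:136804432-136804681, minus strand: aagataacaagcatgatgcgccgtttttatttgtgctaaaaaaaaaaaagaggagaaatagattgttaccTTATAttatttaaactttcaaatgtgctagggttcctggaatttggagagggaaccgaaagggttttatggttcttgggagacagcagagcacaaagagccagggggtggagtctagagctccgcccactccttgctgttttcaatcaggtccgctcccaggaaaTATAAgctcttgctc
The Hist1h2bg sequence is the 175 bases between it and Hist1h2ae, a head-to-head pair whose ratios in G2 were both −0.51. In G1 they were −0.52 for Hist1h2bg and −0.24 for Hist1h2ae. The 250 bases upstream of Hist1h2bq are identical to those of Hist1h2br (0 differences). Hist1h2bq faces Hist1h2ao, and their G1 ratios were −3.69 and −0.044. Hist1h2br faces Hist1h2ap, and their G1 ratios were 0.20 and 0.29. All windows of Hist1h2bq occur in Hist1h2br and 93.5% of those of Hist1h2ao in Hist1h2ap, so these reads are hard to assign to 1 copy. The Hist4h4 sequence holds TATAA on both strands and no CCAAT or octamer. A match to these letters is a description of the sequence only.

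Replacement histone genes, which are replication-independent and give polyadenylated mRNAs, mostly moved little. Of the 11 examined 10 were listed, 9 had at least 20 reads, and the medians came to −0.035, −0.12 and −0.15. None was past 2-fold in G1 or G2, and 1 was lower in G3 (background 6.86%), H2afz (137, 154 and 61 reads). H1f0, a linker histone of resting cells, had 3735, 2758 and 4035 reads, with 0.35 (0.29 to 0.42) in G2. The replication-dependent H1 sum gave −0.40 in the same comparison. H2afx, which makes both a stem-loop and a polyadenylated mRNA, had 2303, 1930 and 1794 reads, with 0.046 in G1 and −0.12 in G2. H3f3b, which encodes H3.3, had 2343, 1838 and 1495 reads, with −0.049 and −0.41. Cenpa, the centromeric H3, had 660, 446 and 430 reads, with −0.26 and −0.38.

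The genes that make and degrade histone mRNA were listed in 17 of 18 cases. None of the 16 with at least 20 reads was past 2-fold in G1 or G3, and 1 was lower in G2 (background 9.01%), Zfp473 (61, 27 and 20 reads). Slbp, which binds the stem-loop, had 242, 302 and 245 reads, with 0.62 (0.37 to 0.87) in G1 and 0.26 (−0.0045 to 0.52) in G2. Npat, the coactivator of histone gene transcription, had 461, 449 and 388 reads, with 0.26 (0.072 to 0.45) and −0.0087 (−0.21 to 0.19). All 12 histone chaperone genes were listed, with medians of 0.20 in G1, 0.11 in G2 and −0.095 in G3. Past 2-fold was 1 of them, Nap1l1, higher in G2 (321, 326 and 623 reads, background 4.15%).

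The S phase and cell cycle genes had a median above that of the histone genes in G1. All 28 were listed, with medians of 0.40, −0.0028 and −0.27, against −0.076, −0.20 and −0.18 for the histone genes. In G1, 2 were past 2-fold higher and in G3 the same 2 were lower, Ccne2 (111, 307 and 135 reads) and Fen1 (285, 490 and 210 reads). Over all genes tested, 4.87% were higher in G1 and 6.86% lower in G3. Pcna, the replication clamp, had 2198, 3090 and 2944 reads, with 0.79 (0.71 to 0.87) in G1. Rrm2, a subunit of ribonucleotide reductase, had 811, 1164 and 632 reads, with 0.82 (0.69 to 0.95) in G1 and −0.94 (−1.08 to −0.80) in G3. Mki67, the proliferation marker, had 7513, 4394 and 3842 reads, with −0.47 (−0.53 to −0.42) in G1 and −0.73 (−0.78 to −0.67) in G2. Top2a, the mitotic topoisomerase, had 4129, 3264 and 2788 reads, with −0.038 (−0.11 to 0.028) and −0.33 (−0.40 to −0.26). Of the 28 genes, 21 were above 0 in G1 and 7 below. Of the 67 histone genes 37 were below 0, near the share over all genes (6548 of 12713). In bulk RNA, fewer cells or ABs carrying an mRNA and less of it in each cannot be told apart.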

How the data were processed

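RNA of 3 AB libraries, 1 per stage, was measured. The submitters' processing notes name FastQC, HISAT2, StringTie and GRCm38, with no role or version given in the sources used here. The authors deposited read counts and FPKM per transcript for mRNA, read counts for lncRNA and back-splice junction read counts for circRNA, of which none lay at a histone gene. The deposited FPKM are scaled to the reads of the mRNA table, as the implied total came within 1% of it for 96.0 to 96.3% of transcripts. Treatment of multi-mapping reads and strand is not given in the sources used here.

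Counts were summed per GENCODE M21 gene (211 of 56651 transcripts were not in it) with Python 3.11.15, pandas 2.3.3, numpy 2.4.6 and SciPy 1.17.1, and divided by the mRNA reads of the library. A gene was called past 2-fold at a ratio above 2 or below 0.5 with at least 20 reads in all; a count of 0 was set to a floor of 3 reads. No test was made, and the interval script was tested on simulated data. Reads without molecular identifiers are not independent molecules, so intervals cover counting error only. Named genes were the 15 with most reads, the top gene of each class, genes with at least 100 reads past 2-fold, the 3 replacement histone genes with most reads and Cenpa, Slbp, Npat, Mki67, Top2a, Pcna and Rrm2; Hist3h2bb-ps, Hist1h2br, Hist1h2ae, Hist1h2bg, Hist1h4n, Gm20634, the stem-loop examples and single genes past 2-fold in other lists were chosen after their values were seen. Members and lists were chosen with earlier results of these data known. The ratio of H3 and H4 to the other classes, the GC quintiles, the windows of 50 bases, the joined genes, the sum of Hist1h2bq and Hist1h2br and the promoter motifs were chosen after seeing the data. Alternatives were other scalings, filters, pseudocounts, transcript sets and FPKM.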

Additional observations from a re-analysis of the deposited data

Results flagged for a closer look

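Some histone reads lie outside the mRNA table. Hist1h2aj, an H2A gene typed as an unprocessed pseudogene in the annotation, is not listed in the mRNA table. It had a transcript in the lncRNA table with 413 (BMM-ABs), 292 (pOC-ABs) and 359 (mOC-ABs) reads, 1064 in all, above the 3 reads that a count of 0 allows. A further 16 lncRNA transcripts overlapped 13 of the listed genes, with 1084, 1046 and 940 reads, 3070 in all. There are no control samples, and without strand these reads cannot be told apart from those of the genes they overlap.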

How the results depend on the processing

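With 1 library per stage, the interval covers counting error only, and of 33 alternative values of the summed genes 10 lay within it, 20 outside it and 3 on the other side of 0. Depth limits the genes with few reads, such as Hist3h2bb-ps, more than the sums. Scaled to mRNA and lncRNA reads, the summed genes gave −0.32 in G1, −0.26 in G2 and 0.060 in G3. They gave −0.11 in G2 and 0.0083 in G3 with median-of-ratios size factors, −0.083 in G1 and −0.12 in G2 with the upper quartile, and −0.033, −0.11 and −0.081 in G1, G2 and G3 with protein-coding reads. With protein_coding transcripts only the ratio was −0.091 in G1 and −0.13 in G2, and with the deposited FPKM −0.15, −0.13 and 0.018 in G1, G2 and G3. Without Hist2h3c1 it was −0.13 in G1 and −0.023 in G3, and without multi-exon genes −0.094 and −0.060. So the direction held in G1 and G2 under every alternative run, and in G3 it turned under 3. The median of the genes was −0.27 in G1 and −0.30 in G2 when scaled to mRNA and lncRNA reads. In G1 it ranged from −0.27 to 0.0076, and 11 of 12 alternative values kept its sign. Of its 36 alternative values, 34 stayed within the interval of the median. That interval was taken from the ranks of the gene ratios, not from counting error, and treats genes that share reads as separate. It cannot be set beside the intervals of the sums. Of 72 alternative counts past 2-fold, 65 were within 1.5 times. With at least 100 reads, 1 gene was higher in G1, and with protein_coding transcripts or FPKM 2 were higher in G2. Chosen after seeing the data, Gm20634 reads added to Hist2h2aa1 left 1 gene lower in G1 and 1 higher in G3, and sharing groups left 0 in each. The summed genes with Gm20634 gave −0.042 in G1 and −0.11 in G3, and without Hist4h4 and Hist2h2aa1 −0.23 in G2 and −0.12 in G3. Of 129 alternative values of class sums, 46 stayed within the interval, 76 left it, and a further 7 turned a direction whose interval did not hold 0 (H2A in G3 under 2 alternatives, H3 in G1, H4 in G1 and H4 in G2 under 3 scalings). Runs of 3 class values are G1, G2 and G3. Scaled to mRNA and lncRNA reads, the class sums stood for H1 at −0.57, −0.50 and 0.072, for H2A at −0.71, −0.17 and 0.54, for H2B at −0.54, −0.32 and 0.22, for H3 at −0.071, −0.26 and −0.19 and for H4 at −0.038, −0.13 and −0.093. With size factors, the class sums stood for H1 at −0.36 in G2 and 0.020 in G3, for H2A at −0.031 in G2 and 0.49 in G3, for H2B at −0.18 in G2 and 0.17 in G3, for H3 at −0.11 in G2 and −0.24 in G3 and for H4 at 0.011 in G2 and −0.14 in G3. With the upper quartile, the class sums stood for H1 at −0.34 in G1 and −0.36 in G2, for H2A at −0.48 in G1 and −0.033 in G2, for H2B at −0.31 in G1 and −0.18 in G2, for H3 at 0.16 in G1 and −0.12 in G2 and for H4 at 0.20 in G1 and 0.0089 in G2. With protein-coding reads, the class sums stood for H1 at −0.29, −0.36 and −0.069, for H2A at −0.43, −0.031 and 0.40, for H2B at −0.26, −0.18 and 0.077, for H3 at 0.21, −0.12 and −0.33 and for H4 at 0.24, 0.010 and −0.23. With protein_coding transcripts only, the class sums stood for H2A at −0.021 in G2 and 0.49 in G3 and for H2B at −0.26 in G1 and −0.14 in G2. With FPKM, the class sums stood for H1 at −0.34, −0.31 and 0.023, for H2A at −0.48, −0.13 and 0.36, for H2B at −0.10 in G2 and 0.27 in G3 and for H4 at 0.093 in G1 and −0.10 in G2. Without the gene with most reads of each class, the class sums stood for H1 at −0.44, −0.35 and 0.091, for H2A at −0.66, −0.022 and 0.64, for H2B at −0.38 in G1 and −0.27 in G2, for H3 at 0.16 in G1 and −0.32 in G3 and for H4 at 0.21 in G1 and −0.22 in G3. With Gm20634 added, the class sums stood for H2A at −0.064 in G1 and −0.0056 in G3. Without Hist4h4 and Hist2h2aa1, the class sums stood for H2A at −0.27, −0.29 and −0.021 and for H4 at 0.038 in G1 and −0.16 in G2. The cause of these shifts was not tested. No paired analysis was possible because each stage has 1 library.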
